A study of Saccharomyces cerevisiae with 2 samples.

Results

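Aminoacyl-tRNA synthetases are the enzymes that load each transfer RNA with its amino acid, so that the ribosome can read the genetic code. Yeast makes a cytosolic set for the bulk of protein synthesis and a mitochondrial set, also encoded in the nucleus, that serves the translation of the few proteins made inside the organelle. Some genes supply both compartments. Genes of the cytosolic set are expressed strongly in growing cells, and many are known targets of the transcription factor Gcn4, which answers amino acid shortage.

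The 32 genes described here were chosen by name: 19 encode cytosolic enzymes and 13 mitochondrial ones, out of 6002 nuclear protein-coding genes. Of the cytosolic set, ALA1, GRS1, HTS1 and VAS1 are known to supply the mitochondrial enzyme as well. Each gene was examined in its coding body and in the 500 bp upstream of its coding start, where a yeast promoter usually lies. DNase-seq maps accessible chromatin by where the enzyme DNase I cuts in isolated nuclei, and a hotspot is a stretch that a caller marks as cut more than its surroundings.

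The study compared 2 cultures in the W303 background: a strain with the temperature-sensitive Hsp90 allele G170D, and wild type (WT). Hsp90 is an abundant chaperone that folds kinases, receptors and transcription factors. Both cultures grew in rich YPD medium at 30 °C, starting at an optical density (OD) of 0.25 and reaching 0.65, and then spent 15 min at 37 °C, a temperature that the design calls non-permissive for the mutant. The labels do not say which other Hsp90 gene copies either strain carried.

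Each strain gave 1 library, so every value below compares 2 libraries without replicates and without a test. With no library from before the shift, a difference that existed at 30 °C cannot be told apart from one that followed it. The G170D list held 5988 hotspots over 3.33 Mb and the WT list 7050 over 3.83 Mb, and the read depth behind them is unknown. Over all coding genes, hotspots covered 53.7% of the upstream bases in G170D and 58.7% in WT. They covered 19.0% of the coding bases in G170D and 22.9% in WT. Coordinates are those of sacCer3, the genome of another strain, S288C, counted from 1. Positions along a gene are given from the first coding base, which is +1, and negative positions lie upstream.

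The synthetase genes had fewer upstream bases covered by hotspots in the G170D library than in the WT library, with lower coverage at 11 genes and higher at 4. Upstream coverage over all coding genes was also lower in G170D. Upstream hotspots were present at 21 of the 32 genes in G170D (65.6%) and at 24 in WT (75.0%), against 76.0% of all coding genes in G170D and 82.0% in WT. Of the 500 upstream bases, the median gene had 246 bp covered in G170D and 311 bp in WT, against 286 bp in G170D and 317 bp in WT over all coding genes. Summed over the 32 windows, 6570 bp were covered in G170D and 8246 bp in WT, made up of 1046 bp gained and 2722 bp lost. A gene counts here as lower or higher when its covered length differed by at least 100 bp of the 500. By this measure 11 of 32 genes were lower in G170D (34.4%), where 19.6% of all coding genes were, and 4 were higher (12.5%), where 9.61% of all coding genes were. With a 1000 bp window, and the same share of the window as the limit, 7 were lower and 3 higher. The shares over all coding genes were not counted at that window. With both lists cut to equal length, upstream hotspots were at 21 genes in G170D and 22 in WT. Upstream coverage was then lower at 11 genes and higher at 4, again without shares over all coding genes.

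**Figure D1:**
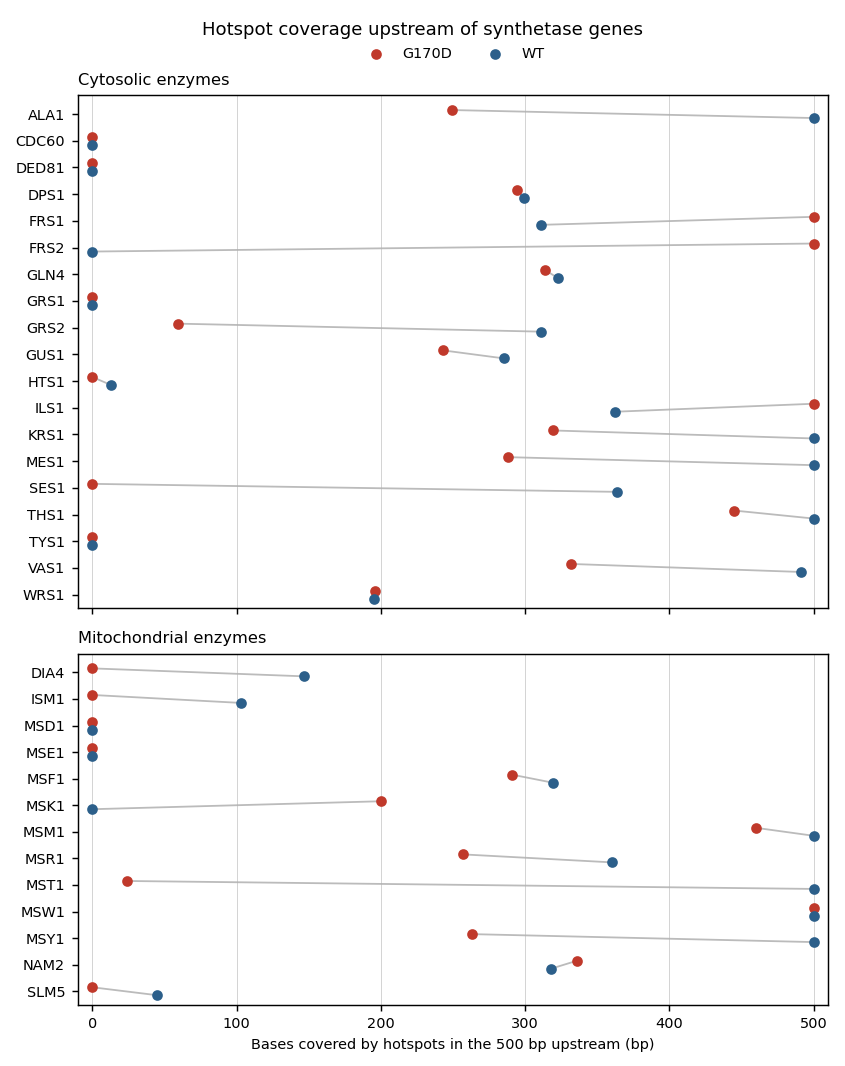
Bases covered by hotspots (x axis, bp) in the 500 bp upstream of each synthetase gene, with one point for the G170D library and one for the WT library, joined by a line. MST1 (24 bp in G170D, 500 bp in WT) and SES1 (0 and 364 bp) lie far to the left in G170D, and FRS2 (500 bp in G170D, 0 bp in WT) lies to the right.

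Among the cytosolic enzymes, upstream coverage was lower in G170D at ALA1, GRS2, KRS1, MES1, SES1 and VAS1. SES1, the gene of the seryl-tRNA synthetase (chromosome IV, 489508 to 490896, plus strand), had 0 bp of its window covered in G170D and 364 bp in WT. Its WT hotspot ran from -1192 to -137, over the divergent gene ATG31, which acts in autophagy. In G170D a hotspot of 483 bp, from -1093 to -611, stayed outside the 500 bp. The hotspot over the other end of SES1, which reaches into the ribosomal protein gene RPS11A, measured 1220 bp in G170D and 1306 bp in WT. The 500 bp before the SES1 start were thus without a hotspot in the mutant library, while its coding end had one in both.

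ALA1, for alanine (chromosome XV, 946233 to 949109, minus strand), had 249 bp of its window covered in G170D and the whole 500 bp in WT. The difference lay on the side of the gene: the hotspot ended at -252 in G170D and at +117 in WT. At KRS1, for lysine (chromosome IV, 525440 to 527215, plus strand), 319 bp were covered in G170D and 500 bp in WT. Here the hotspot spanned -484 to -166 in G170D and -690 to +33 in WT, so it drew in from both sides. VAS1, for valine (chromosome VII, 672186 to 675500, plus strand), had 332 bp covered in G170D and 491 bp in WT. The VAS1 hotspot of G170D reached further into the gene, to +447, where WT had hotspots ending at +94 and, after a gap, at +437.

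MES1, for methionine (chromosome VII, 1019598 to 1021853, minus strand), lay under one WT hotspot of 1851 bp from -838 to +1013. In G170D this stretch held a hotspot of 534 bp ending at -293 and another of 650 bp from -80 to +570. The window was covered over 288 bp in G170D and 500 bp in WT. GRS2, a duplicate of the glycyl-tRNA synthetase gene GRS1 (chromosome XVI, 702114 to 703970, minus strand), had 59 bp covered in G170D and 311 bp in WT. Its hotspots also touched DIB1, the tandem neighbour 254 bp away, and MDM36, and ended at -442 in G170D and -190 in WT. GRS1 itself had 0 bp of its window covered in either strain.

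Gains upstream were seen at both genes of the cytosolic phenylalanyl-tRNA synthetase, an enzyme built from 2 kinds of subunit, and at ILS1. FRS2, the alpha subunit gene (chromosome VI, 93499 to 95010, minus strand), had its whole window covered in G170D and 0 bp in WT. The G170D hotspot spanned 2387 bp, from -2283 to +104 (chromosome VI, 94907 to 97293), and scored above 98.2% of its own list. It took in the divergent gene GAT1, a transcription factor of nitrogen metabolism, where the WT hotspot of 1208 bp ran from -1802 to -595. The coding body of GAT1 was covered over 86.6% in G170D and 55.3% in WT, so the wider hotspot was not limited to the FRS2 side.

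FRS1, the beta subunit gene (chromosome XII, 260979 to 262766, plus strand), had 500 bp covered in G170D and 311 bp in WT. One G170D hotspot of 1662 bp, from -1624 to +38, lay where WT had hotspots of 714, 346 and 168 bp with gaps between them. The hotspot edges over the FRS1 start were nearly equal, at +38 in G170D and +34 in WT. Downstream, a WT hotspot of 857 bp touched the last 21 bp of FRS1 and the ribosomal protein gene RPL22A, and no G170D hotspot touched FRS1 there. The RPL22A window itself was covered in both strains, over 405 bp in G170D and 448 bp in WT. ILS1, for isoleucine (chromosome II, 81043 to 84261, minus strand), had 500 bp covered in G170D and 362 bp in WT. The ILS1 hotspot extended from -892 to +298 in G170D and from -899 to -139 in WT, so the coding start lay inside it in G170D alone.

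The other 10 cytosolic genes differed by less than 100 bp. DPS1 (aspartate), GLN4 (glutamine), GUS1 (glutamate) and WRS1 (tryptophan) had 294, 314, 243 and 196 bp covered in G170D, against 299, 323, 285 and 195 bp in WT. The DPS1 hotspot kept its edges within 6 bp, spanning -294 to +33 in G170D and -299 to +27 in WT. THS1 (threonine) had 445 bp in G170D and 500 bp in WT, and its hotspot ended at -56 in G170D and +222 in WT. HTS1 (histidine) had 0 bp in G170D and 13 bp in WT, a single hotspot of 13 bp that scored above only 9.94% of the WT list and also lies in the window of the divergent ARP7.

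No upstream hotspot was found in either strain at CDC60 (leucine), DED81 (asparagine), GRS1 (glycine) and TYS1 (tyrosine). DED81 stands back to back with YHR020W, the cytosolic prolyl-tRNA synthetase gene, across 437 bp, and neither gene had a hotspot in its window in G170D or in WT. At CDC60, GRS1 and TYS1 a hotspot of each strain lay over the coding end and the next gene, and CDC60 had a further WT hotspot of 86 bp inside its body. The TYS1 one measured 1245 bp in G170D and 1220 bp in WT, and the GRS1 one 912 bp in G170D and 956 bp in WT.

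**Figure D2:**
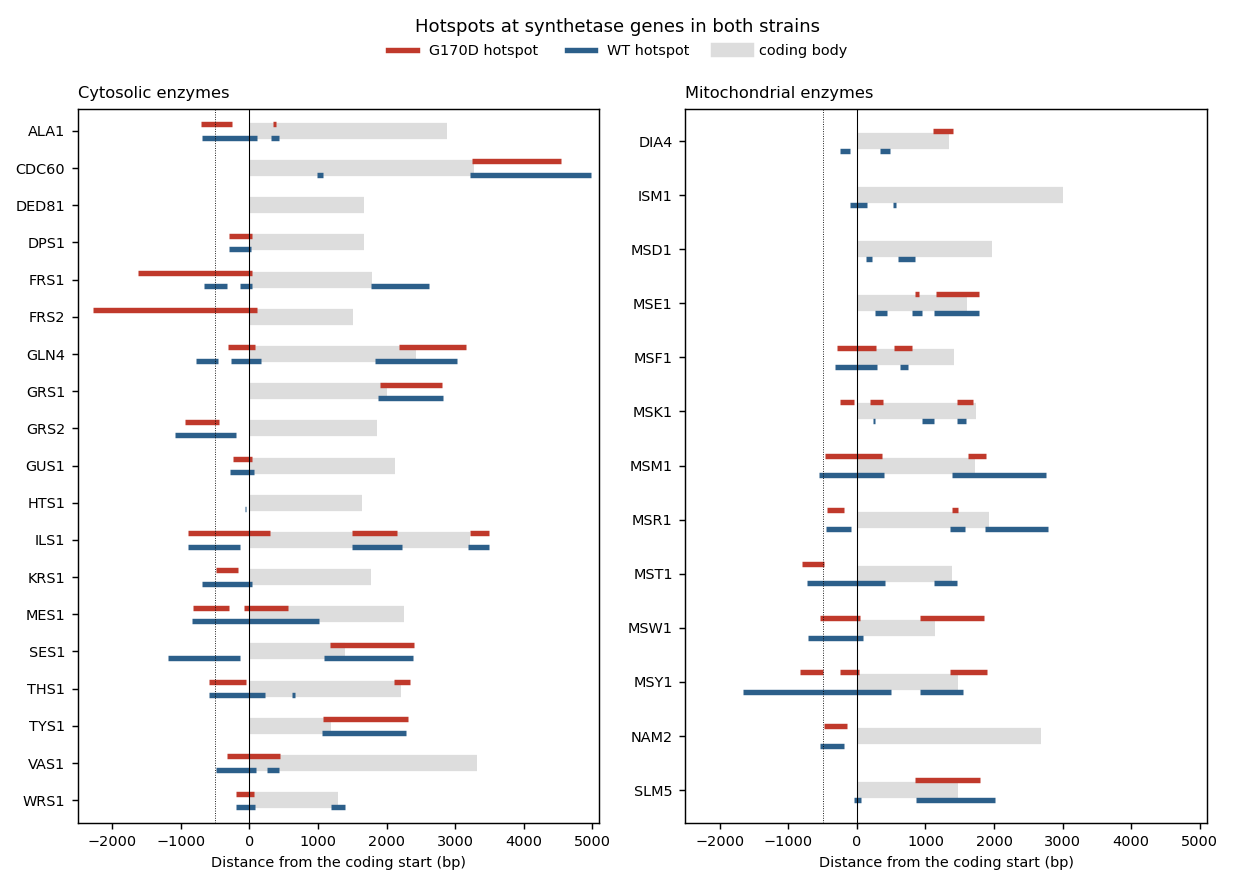
Hotspots that touch the coding body or the 500 bp upstream of each synthetase gene, on a scale of distance from the coding start (x axis, bp), with the G170D hotspots drawn above the WT hotspots and the coding body in grey. The solid line marks the coding start and the dotted line 500 bp upstream. The windows of FRS1 and FRS2 lie under a single wide hotspot in G170D, the WT hotspots of MES1 and MSY1 are broken up in G170D, and DED81 has none in either strain.

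Among the mitochondrial enzymes, upstream coverage was lower in G170D at DIA4, ISM1, MSR1, MST1 and MSY1, and higher at MSK1. MST1, for threonine (chromosome XI, 77258 to 78646, minus strand), had 24 bp covered in G170D and 500 bp in WT, the largest loss among the 32 windows. The WT hotspot of 1135 bp spanned -725 to +410. In G170D a hotspot of 328 bp from -804 to -477 was left, scoring above only 3.91% of its list, at the neighbour SDS22. MSY1, for tyrosine (chromosome XVI, 364952 to 366430, plus strand), had 263 bp in G170D and 500 bp in WT. The MSY1 start lay in a WT hotspot of 2167 bp from -1665 to +502, and that stretch held separate hotspots of 570, 343 and 280 bp in G170D. The last of these, from -253 to +27, scored above 76.4% of the G170D list, so a hotspot lay directly upstream of the coding start in both libraries.

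MSR1, for arginine (chromosome VIII, 284839 to 286770, minus strand), had 257 bp covered in G170D and 360 bp in WT. Its hotspot spanned -441 to -185 in G170D and -451 to -92 in WT, and scored above 11.6% of the G170D list and 61.7% of the WT list. The neighbour upstream is the hexose transporter gene HXT4, 310 bp away. DIA4, for serine (chromosome VIII, 127780 to 129120, plus strand), had 0 bp in G170D and a 147 bp hotspot in WT, from -249 to -103. ISM1, for isoleucine (chromosome XVI, 475993 to 479001, minus strand), had 0 bp in G170D and 103 bp in WT, from a hotspot that ended at +152. It also lies in the window of the divergent gene YPL039W. The DIA4 and ISM1 hotspots scored above 26.5% and 25.5% of the WT list, and that of SLM5 (0 bp in G170D, 45 bp in WT) above 4.24%, so all 3 stood in the lower part of that list.

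MSK1, for lysine (chromosome XIV, 488386 to 490116, plus strand), had 200 bp covered in G170D and 0 bp in WT. The G170D hotspot, from -242 to -43, overlapped no WT hotspot and lay between MSK1 and its divergent neighbour MLF3, 261 bp apart. The MLF3 window was covered over 256 bp in G170D and 7 bp in WT. MSK1 thus differs from FRS2, whose G170D hotspot also overlapped a WT one outside the window.

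The other 7 mitochondrial genes differed by less than 100 bp. MSW1 (tryptophan) had all 500 bp covered in both strains. MSF1 (phenylalanine) had 291 bp in G170D and 319 bp in WT, MSM1 (methionine) 460 bp in G170D and 500 bp in WT, and NAM2 (leucine) 336 bp in G170D and 318 bp in WT. NAM2, which is also known to act in splicing of mitochondrial introns, had no hotspot in its coding body in either strain. MSD1 (aspartate) and MSE1 (glutamate) had no upstream hotspot in either strain.

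Sorting all 32 genes by presence of a hotspot alone gave 19 with one in both strains, 2 in G170D alone, 5 in WT alone and 6 in neither. Over all coding genes these classes held 72.4%, 3.65%, 9.58% and 14.4%. FRS2 and MSK1 were the genes in G170D alone, and SES1, HTS1, DIA4, ISM1 and SLM5 those in WT alone. Of the cytosolic genes 12 were in both strains and 4 in neither, and of the mitochondrial genes 7 were in both and 2 in neither. At GRS2 and MST1, counted in both, the G170D bases lay past the start of the upstream neighbour, 254 and 219 bp away. With windows ended at the nearest coding base of another gene, 19 genes had a hotspot in G170D and 24 in WT. Of these, 2 were in G170D alone and 7 in WT alone. The highest-scoring upstream hotspot of a cytosolic gene stood, at the median, above 49.4% of the list in G170D and 67.5% in WT, and that of a mitochondrial gene above 51.6% in G170D and 60.3% in WT. Over all coding genes with an upstream hotspot the medians were 73.3% in G170D and 73.7% in WT. Each of the 4 synthetase medians, over 13 and 14 cytosolic and 8 and 10 mitochondrial genes in G170D and WT, stood below that of all genes in the same list.

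The coding start itself was covered at 9 cytosolic genes in G170D and 10 in WT, and at 4 mitochondrial genes in G170D and 7 in WT. Over all coding genes these shares were 49.8% in G170D and 55.0% in WT. The start was covered in G170D alone at FRS2 and ILS1, and in WT alone at ALA1, KRS1, THS1, ISM1, MST1 and SLM5. Of all 6002 coding genes, 382 had the start covered in G170D alone and 700 in WT alone. Upstream coverage was read every 10 bp. In cytosolic genes of G170D it peaked at 10 of 19, from -190 to -170 and again from -80 to -60, with 9 genes in between. In WT it peaked at 12 of 19 cytosolic genes, at -190. In mitochondrial genes the peak stood between -240 and -190 in both, with 7 of 13 in G170D and 8 of 13 in WT. Over all coding genes it stood at -150 in G170D, with 60.0% of genes, and at -160 in WT, with 65.6%. At +100 the cytosolic counts were equal, with 4 of 19 genes covered in each strain. The mitochondrial set had 2 of 13 covered there in G170D and 5 of 13 in WT, and all coding genes 36.9% in G170D and 40.6% in WT.

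**Figure D3:**
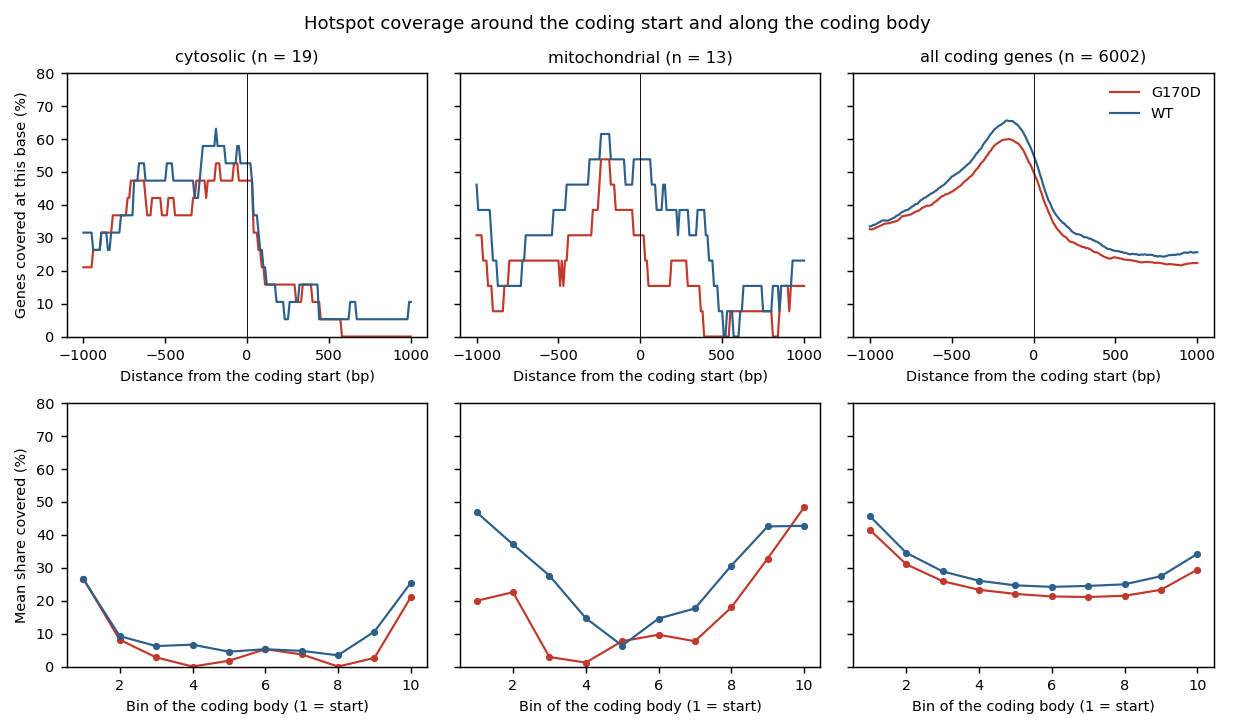
Upper row, share of genes (y axis, %) covered by a hotspot at each distance from the coding start (x axis, bp). Lower row, mean share covered (y axis, %) of each of 10 equal bins of the coding body, from start to end. The 19 cytosolic genes, the 13 mitochondrial genes and all 6002 coding genes are shown for G170D and WT. Cytosolic bodies are nearly bare in the middle. Mitochondrial bodies are less covered in G170D than in WT in every bin except bins 5 and 10.

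Coding bodies of the cytosolic enzymes were mostly free of hotspots in both strains, and those of the mitochondrial enzymes less so. Over the 19 cytosolic bodies 8.06% of 39492 bp were covered in G170D and 11.1% in WT. Over the 13 mitochondrial bodies 14.6% of 22911 bp were covered in G170D and 25.2% in WT. Of these bases, 1476 bp of the cytosolic and 2529 bp of the mitochondrial bodies lay in the 500 bp upstream windows of other coding genes. Outside such windows, cytosolic bodies were covered over 7.80% in G170D and 10.5% in WT. Mitochondrial bodies were covered there over 12.8% in G170D and 23.4% in WT. The median cytosolic body was covered over 4.67% in G170D and 6.79% in WT, and the median mitochondrial body over 17.8% in G170D and 20.0% in WT. Among the 2778 coding genes within the members' length range of 1140 to 3315 bp, the medians were 11.3% in G170D and 16.5% in WT, between those of the 2 sets. Their pooled shares were 17.6% in G170D, above both sets, and 21.4% in WT, between them. Cytosolic genes were the longer set, with a median of 1857 bp against 1611 bp for mitochondrial genes.

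Bodies covered over more than 20% numbered 2 of 19 cytosolic genes in G170D (ILS1 and MES1) and 4 in WT, where GLN4 and SES1 joined them. Of the 13 mitochondrial genes there were 6 in G170D and 6 in WT (46.2% each). Within the members' length range 34.6% of coding genes were covered to this extent in G170D and 43.5% in WT, and over all coding genes 41.4% in G170D and 49.5% in WT. Each body was divided into 10 bins of equal length. In bins 3 to 8, mean coverage of the cytosolic genes was 2.25% in G170D and 5.14% in WT, that of the mitochondrial genes 7.85% in G170D and 18.6% in WT, and that of all coding genes 22.5% in G170D and 25.6% in WT. In the first bin the cytosolic genes had 26.7% in G170D and 26.5% in WT, and the mitochondrial genes 20.0% in G170D and 46.9% in WT. In the last bin the mitochondrial genes had 48.3% in G170D and 42.8% in WT, so the set was less covered in G170D in the first bin and slightly more in the last.

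**Figure D4:**
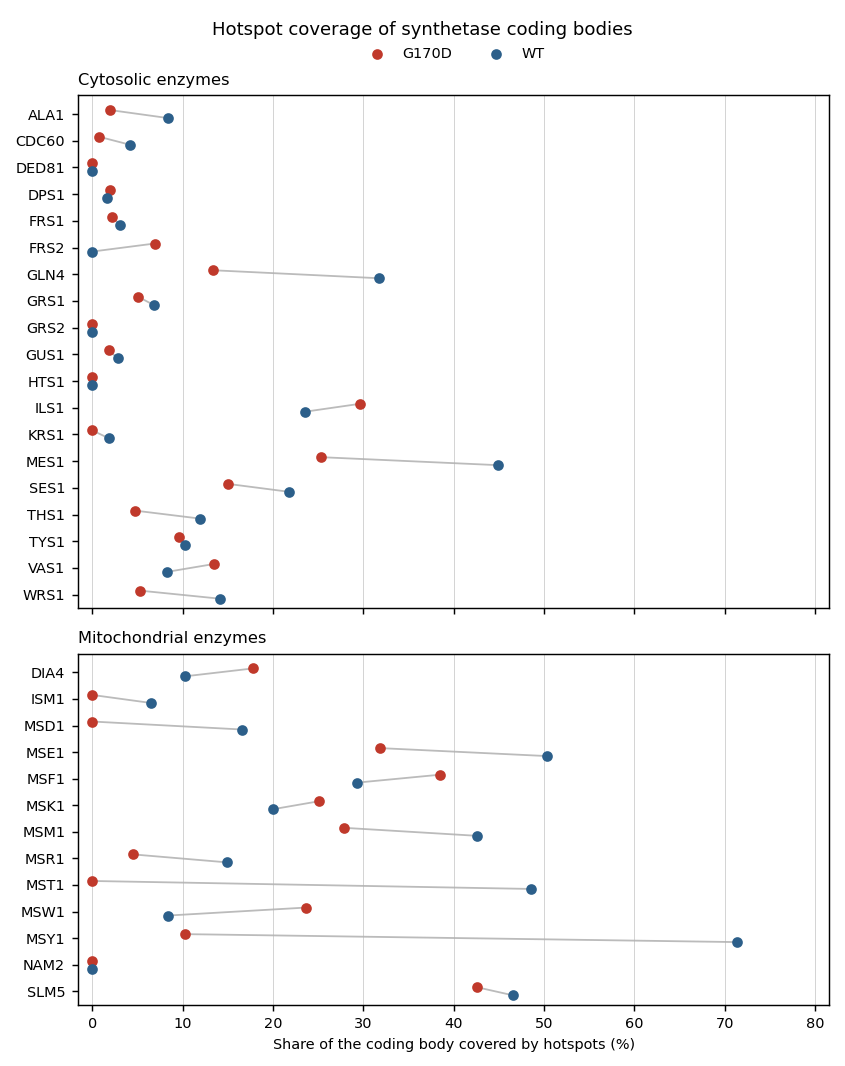
Share of each coding body covered by hotspots (x axis, %), with one point for the G170D library and one for the WT library. MSY1 (10.2% in G170D, 71.3% in WT) and MST1 (0% in G170D, 48.5% in WT) have the widest gaps, and most cytosolic bodies lie below 20% in both strains.

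Body coverage differed by at least 20 percentage points at 2 of the 32 genes, MST1 and MSY1, both mitochondrial and both lower in G170D. Over all coding genes 15.3% were lower by this measure and 9.43% higher, and of the synthetase genes 0 were higher. MST1 had 0 of 1389 bp covered in G170D and 674 bp in WT, from the promoter hotspot and from a second one of 336 bp over the coding end. MSY1 had 151 bp covered in G170D and 1055 bp in WT. These 2 genes made up most of the difference in the mitochondrial set. Without both, chosen after their values were seen, the other 11 bodies were covered over 16.0% in G170D and 20.1% in WT, and the medians turned round, at 23.7% in G170D and 16.5% in WT. Without MST1 alone the shares were 15.6% in G170D and 23.7% in WT, and without MSY1 alone 14.9% in G170D and 22.0% in WT; either omission put the median of G170D (20.8%) above that of WT (18.3%).

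Some genes showed smaller shifts along the body. MES1 had 25.3% covered in G170D and 44.9% in WT, and GLN4 13.3% in G170D and 31.8% in WT, just under the 20 points. MSD1 had 0% in G170D and 16.5% in WT, from hotspots of 85 and 242 bp that each scored above less than 10% of the WT list. MSE1 had 31.8% in G170D and 50.3% in WT, MSM1 27.9% in G170D and 42.5% in WT, and MSR1 4.50% in G170D and 14.9% in WT. MSW1 went the other way, with 23.7% in G170D and 8.42% in WT. A G170D hotspot of 940 bp covered the MSW1 end and the start of the copper transporter gene CCC2. It overlapped a WT hotspot that did not reach MSW1, and the CCC2 window was covered over 500 bp in both strains. MSF1 had 38.5% in G170D and 29.3% in WT, and MSK1 25.1% in G170D and 20.0% in WT. SLM5, for asparagine, had 42.6% in G170D and 46.5% in WT, mostly from a hotspot over its coding end.

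For 12 amino acids other than glycine a cytosolic and a mitochondrial gene are both among the 32, which gives 13 pairs when FRS1 and FRS2 are each set beside MSF1. The mitochondrial body was more covered than its cytosolic counterpart in 9 of 13 pairs in G170D and in 8 of 13 in WT. For glutamate, MSE1 had 31.8% covered in G170D and GUS1 1.79%, with 50.3% and 2.82% in WT. Isoleucine ran the other way, with ISM1 at 0% and ILS1 at 29.7% in G170D, and 6.45% and 23.5% in WT. Upstream, the mitochondrial gene had the longer coverage in 4 pairs and the cytosolic gene in 7 in G170D, against 6 and 5 in WT. For threonine, the windows of MST1 and THS1 were covered over 24 and 445 bp in G170D, and both over 500 bp in WT. For lysine, MSK1 had 200 bp and KRS1 319 bp in G170D, against 0 and 500 bp in WT, so the mitochondrial gene was higher and the cytosolic one lower in the mutant.

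Neighbouring genes share many of these windows. Another coding gene lay less than 500 bp upstream at 10 of 19 cytosolic and 11 of 13 mitochondrial genes, against 56.0% of all coding genes. The 500 bp window of such a gene includes part of a neighbour, whether or not that part was covered. The upstream neighbour was divergent at 14 cytosolic (73.7%) and 6 mitochondrial genes (46.2%), against 51.9% of all coding genes. Where it lay close it could share the promoter region. Some divergent neighbours lay beyond the 500 bp, such as those of DPS1 (4856 bp away) and FRS2 (955 bp). When windows were ended at the nearest coding base of another gene, 9 of the 32 genes were lower in G170D and 4 higher. The limit was then the same share of the shortened window, which is less than 100 bp where the window was cut. No transfer RNA gene lay in any of the 32 windows. Whether the neighbour, the depth of the library or the extent of digestion plays a part in these differences was not tested.

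Beyond the 32, 18 further genes of tRNA charging and its sensing had 15 promoters with a hotspot in both strains, 0 in G170D alone, 1 in WT alone and 2 in neither. All coding genes held these classes at 72.4%, 3.65%, 9.58% and 14.4%. By the 100 bp measure 0 of the 18 were higher in G170D, against 9.61% of all coding genes, and 4 were lower (22.2%, against 19.6%). They were YDR341C, the cytosolic arginyl-tRNA synthetase gene (144 bp in G170D, 472 bp in WT), CRS1, for cysteine (78 and 198 bp), CCA1, which adds the CCA end to tRNAs (0 and 183 bp), and GTF1, a subunit of the mitochondrial amidotransferase (221 and 459 bp). Body coverage was lower by 20 points at AIM10, CEX1, GTF1 and LOS1 (22.2%, against 15.3% of all coding genes) and higher at 0 (against 9.43%). GTF1 had 0% of its body covered in G170D and 52.0% in WT, and the tRNA export gene LOS1 47.0% in G170D and 78.0% in WT. The gene of Gcn4 had 429 bp of its window covered in G170D and 500 bp in WT, and that of Gcn2, the kinase that senses uncharged tRNA, 500 bp in both. ARC1, whose product binds the methionyl and glutamyl enzymes, had no upstream hotspot in either strain.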

How the data were processed

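The data are DNase-seq hotspot lists of 1 G170D culture and 1 WT culture, and the groups follow the source name in the labels. Per the labels' protocols, isolated nuclei were given a limited DNase I digestion, and size-selected fragments were sequenced. Bowtie 1.0.0, FastQC 0.10.1 and the sacCer3 build are named in the submitters' processing notes. Neither the caller, nor its threshold, nor the read depth is given there. The authors deposited a score for every hotspot, called per sample. Its meaning is not stated, so it was used for nothing but the order of hotspots inside each list.

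Gene coordinates were those of the RefSeq table of assembly R64, in which all 32 genes were matched by symbol, with strand from the W or C of the systematic name. Covered bases were counted in the 500 bp upstream and in the coding body for all 6002 coding genes. A difference was counted at 100 bp upstream or 20 percentage points of the body. These are descriptions with no test. Every one of the 32 genes is accounted for, and those with a change of class or a difference past these limits are described in full. The members and lists were chosen with earlier results of these data known. Alternatives covered the window, list length, score, merging of neighbours and the limits. Coverage counts were checked on simulated hotspots. A planned search for promoter motifs was not run, since no sequence was used here. Computation used Python 3.11.15, numpy 2.4.6, pandas 2.3.3 and matplotlib 3.10.9.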

Additional observations from a re-analysis of the deposited data

How the results depend on the processing

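Counts over the 32 genes moved with the score limit, the list length, the window and the size of difference asked for. The alternatives were counted over these 32 genes only. Whether all coding genes moved alike under the same settings was not tested. With the higher-scoring 50% of each list, upstream hotspots were at 10 genes in G170D and 18 in WT, 1 in G170D alone and 9 in WT alone, and body coverage was lower in G170D at 6 genes. Body coverage was then 4.60% in G170D for cytosolic and 6.88% for mitochondrial genes, against 9.18% and 17.6% in WT. With lists of equal length, upstream hotspots were at 21 genes in G170D and 22 in WT, 2 in G170D alone and 3 in WT alone. With a 250 bp window 8 genes were in WT alone, and with a 1000 bp window 3. At 1000 bp, 1 gene was in G170D alone and upstream coverage was lower at 7. With a limit of 10 percentage points, body coverage was lower in G170D at 8 genes and higher at 1, MSW1. Merging hotspots under 100 bp apart altered no count, since neighbours in either list lie at least 151 bp apart. Under each alternative run, genes lower in G170D outnumbered those higher, upstream and in the body. All coding genes had the same direction at the main limits. Upstream 19.6% of them were lower and 9.61% higher, and in the body 15.3% were lower and 9.43% higher. No paired analysis was possible because each strain has 1 library. Unknown depth limits all comparisons of list length between strains.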
